A study of Mus musculus with 5 samples.

Results

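The metallothionein genes Mt1, Mt2 and Mt3 were described in mouse kidney cells before and after aristolochic acid I (AAI), a nephrotoxic plant compound. The 3 genes were taken by symbol from the 32285 genes that every library lists, in which 4 metallothionein genes occur, and they were selected on their measured levels in the cell types over control, AKI and CKD, so those levels are a description and carry no test. Mt4, the remaining listed metallothionein gene, had 0 UMIs in kept cells.

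All mice were male wild-type C57BL/6 mice, 8 to 10 weeks old. For 2 weeks AAI was injected intraperitoneally at a dose of 3 mg/kg, with 3 days between doses. One library came from control kidneys at week 0 (vehicle), 2 from AKI kidneys at week 2, and 2 from CKD kidneys at week 4, after 2 weeks without AAI. Dissociated cells were measured in droplets with a 3′ kit, in which each captured transcript is counted once by a unique molecular identifier (UMI) near its 3′ end.

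Metallothioneins are small cysteine-rich proteins that bind zinc and copper, buffer free zinc and take up toxic metals such as cadmium. Mt1 and Mt2 are made in most tissues, and their transcription is raised by zinc, cadmium, glucocorticoids and oxidative stress, the metal response running through the zinc-sensing factor MTF1 and the metal response elements in their promoters. Mt3 was first known as a growth inhibitory factor of brain and is far more restricted, and Mt4 belongs to stratified epithelium. In the kidney, metallothionein is known above all for holding cadmium in the tubule.

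The genes lie side by side on the plus strand of chromosome 8 in GRCm39. Mt4 spans 94863825 to 94865661, Mt3 (ENSMUSG00000031760) 94879220 to 94881088, Mt2 (ENSMUSG00000031762) 94898819 to 94900207 and Mt1 (ENSMUSG00000031765) 94905710 to 94906955. Mt2 ends 5503 bases before Mt1 starts, whereas 17731 bases separate Mt3 from Mt2. The annotated transcripts of the 4 genes share 0 stretches of 31 bases with each other, so a read of that length matches at most 1 of them exactly. The promoter sequences below are shown because Mt1 and Mt2 ran together over the cell types and Mt3 did not. They are RefSeq sequences of the plus strand in GRCm38.p6, 5′ to 3′. Each shows the last 150 bases before the RefSeq start, followed by at most 30 bases after it where a motif falls there. The RefSeq start need not be that of the GRCm39 span above. By the spacing of the starts, that of Mt2 lies inside its span, so its window and motif count refer to the RefSeq start only. Capitals mark matches to the core of the metal response element, searched as TGCACNC or TGCGCNC on both strands.
Mt1, chr8:94178939-94179088: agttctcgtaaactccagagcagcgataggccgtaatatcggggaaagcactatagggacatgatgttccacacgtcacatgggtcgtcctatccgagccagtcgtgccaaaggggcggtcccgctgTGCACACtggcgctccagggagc
Mt1 site, chr8:94179089-94179118: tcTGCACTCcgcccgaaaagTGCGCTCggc
Mt2, chr8:94172468-94172617: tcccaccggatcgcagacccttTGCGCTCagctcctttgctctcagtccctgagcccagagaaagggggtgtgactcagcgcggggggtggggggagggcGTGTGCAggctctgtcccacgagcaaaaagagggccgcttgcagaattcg
Mt2 site, chr8:94172619-94172648: gtcGTGCGCAggcccaggggcgtgtgctgg
Mt3, chr8:94152457-94152606: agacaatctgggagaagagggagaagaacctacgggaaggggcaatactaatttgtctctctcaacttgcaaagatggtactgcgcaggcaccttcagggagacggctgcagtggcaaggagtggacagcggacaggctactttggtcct
Mt3 site, chr8:94152631-94152656: cagTGCACACacacggagagcaggcg

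In the whole window of 250 bases before and 50 bases after the start, the core occurred 3 times for Mt1, 4 times for Mt2 and 1 time for Mt3. At least 1 match was present in 25.7% of the 32851 promoter windows of this length, and at least 3 matches in 1.97%. A single match, as in Mt3, was therefore common among promoters, whereas the counts of Mt1 and Mt2 were not. The core of the antioxidant response element, searched as TGACNNNGC on both strands, occurred 1 time for Mt2 and 0 times for Mt1 and Mt3, against at least 1 match in 12.4% of windows. These matches are descriptions of letters, not of bound sites.

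After filtering, 53718 of 72896 barcodes were kept as cells, with 56186587 to 83140412 UMIs per library. They fell into 53 clusters, and 16 cell classes were named from marker genes, each written as "-like", with 14.7% of cells left unnamed. The control library had 38.7% of its barcodes over 30% mitochondrial UMIs, against 11.1% to 12.7% in the others. CKD 1 held the most cells at the lowest depth in most classes, several clusters came almost entirely from it, and the summed proximal tubule transcripts in its macrophage-like cells (14.2 UMIs per 10000) exceeded those in CKD 2 (1.40), with 14.9 in the control. Of the kept cells, 116 barcodes were shared between the control and CKD 2, and in 91 of them the CKD 2 cell was over 20 times deeper. The sample sizes in the methods match the number of libraries, but whether a library pools mice is not said, so p-values measure the spread between libraries, and because levels are shares of all UMIs of a class, more transcript of a gene and less of the rest cannot be told apart.

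Mt1 was the most abundant metallothionein, with 309815 UMIs in 33407 cells. Mt2 had 66323 UMIs in 13740 cells and Mt3 had 11988 UMIs in 1902 cells. The 3′ count does not scale with transcript length. Whether the 3 genes are captured equally well was not checked, so their order is one of UMIs counted. Levels are given as UMIs of a gene per 10000 UMIs of a class in a library, in the order control, AKI 1, AKI 2, CKD 1, CKD 2.

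Mt1 was high in the distal nephron. In TAL-like cells, the thick ascending limb that reabsorbs salt, its level was 36.4, 47.3, 37.6, 40.1 and 38.5. In DCT-like cells, the distal convoluted tubule, it was 26.9, 54.5, 37.2, 45.2 and 46.6, the last from 18 cells. In all 5 libraries the TAL-like level was above that of every class except DCT-like and fibroblast/pericyte-like cells. Within TAL-like cells AKI 1 was highest and the other 4 libraries lay within 36.4 to 40.1, so the AKI and CKD libraries overlapped.

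Fibroblast/pericyte-like cells, the matrix-forming stroma, had the widest range of Mt1 in absolute level. Their Mt1 level was 12.7, 25.9, 48.2, 23.0 and 62.5 UMIs per 10000, from 46 to 116 cells a library. The control was lowest, the replicates of AKI and of CKD lay far apart, and the groups overlapped. The 10% of cells richest in Mt1 held 45.5% to 67.3% of its UMIs there.

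Intermediate levels were found in CD IC-like cells, the acid-base cells of the collecting duct (10.5, 21.6, 10.6, 16.8 and 13.2), and in thin limb-like cells (6.86, 14.7, 12.3, 12.5 and 22.9). Macrophage-like cells, the phagocytes of the injured kidney, had 7.69, 14.8, 11.3, 10.6 and 11.6. The control was lowest in each of these 3 classes, and AKI and CKD libraries overlapped in each. The control was not lowest in CD PC-like cells (3.51 to 14.7, control 7.88) or urothelium-like cells (6.17 to 14.5, control 7.44), which were also intermediate.

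PT-like cells, the proximal tubule that AAI injures, had little Mt1. Their level was 2.58, 3.64, 2.31, 3.63 and 1.75 UMIs per 10000, close to the 2.07, 4.35, 2.05, 2.74 and 1.97 of T lymphocyte-like cells. An Mt1 UMI was found in 44.5% to 67.1% of PT-like cells and in 42.3% to 61.5% of T lymphocyte-like cells. With every cell thinned to 1000 UMIs the shares were 14.1% to 31.7% and 13.1% to 28.1%, against 82.4% to 89.3% in TAL-like cells. At this depth the PT-like signal was not separable from that in lymphocytes. EC-like cells, the endothelium, lay in the same range (1.92 to 4.15), and NK-like and B lymphocyte-like cells reached at most 2.95 and 4.75.

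**Figure D1:**
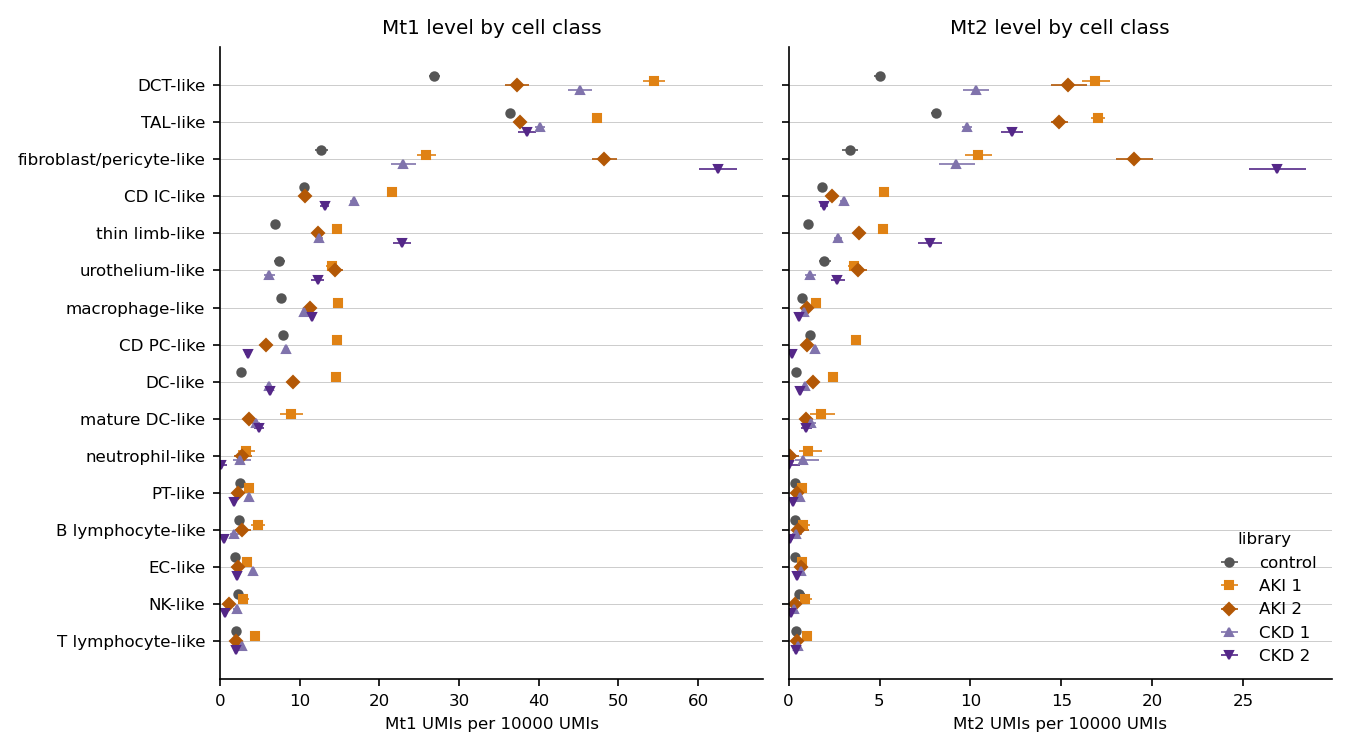
Mt1 (left) and Mt2 (right) levels as UMIs per 10000 UMIs, with 1 row per cell class ordered by the median Mt1 level, 1 symbol per library with at least 20 cells, and bars for the exact 95% Poisson interval of counting error. TAL-like and DCT-like cells are at the top in both panels, PT-like, EC-like and lymphocyte classes at the bottom, and the symbols of AKI 1 lie right of AKI 2 in most rows.

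Mt2 followed Mt1 at a lower level. In TAL-like cells it was 8.08, 17.0, 14.9, 9.81 and 12.3 UMIs per 10000, with both AKI libraries above both CKD libraries and the control lowest. DCT-like cells had 5.01, 16.9, 15.4, 10.3 and 15.9, and fibroblast/pericyte-like cells had 3.38, 10.4, 19.0, 9.22 and 26.8. Macrophage-like cells had 0.738, 1.53, 1.02, 0.824 and 0.599, again with both AKI libraries above both CKD libraries. In PT-like cells Mt2 lay between 0.257 and 0.753, and in T lymphocyte-like cells between 0.388 and 1.00. Over 77 values of 16 classes and 5 libraries with at least 20 cells, the log2 levels of Mt1 and Mt2 had a Pearson correlation of 0.94, those of Mt1 and Mt3 0.18 and those of Mt2 and Mt3 0.04. The logarithm was taken after adding 0.1 to each level, and outside macrophage-like cells most Mt3 levels were below 0.1. The correlations with Mt3 therefore rest on few values. All these values share their libraries, and the correlations are given as a description.

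The ratio of Mt1 to Mt2 UMIs, which does not depend on how many other transcripts a cell holds, was not the same in all classes. In fibroblast/pericyte-like cells it was 3.77 in the control and 2.33 to 2.54 in the AKI and CKD libraries, the lowest of the classes with at least 20 Mt2 UMIs in AKI 1, CKD 1 and CKD 2, whereas in AKI 2 DCT-like cells had 2.42 and TAL-like cells 2.53, and in the control urothelium-like cells had the same 3.77. TAL-like cells had 4.51, 2.78, 2.53, 4.09 and 3.14. T lymphocyte-like cells had 4.83, 4.34, 4.66, 5.04 and 5.08. It was highest, in each library other than CKD 2, in macrophage-like cells among the classes with at least 20 Mt2 UMIs, at 10.4, 9.70, 11.1, 12.9 and 19.4. The lowest macrophage-like value (9.70, with a 95% interval of 9.15 to 10.3) was above all fibroblast/pericyte-like, TAL-like and T lymphocyte-like values. In CD PC-like cells of CKD 2 the ratio was 21.0, from 24 Mt2 UMIs in 45 cells. In TAL-like and fibroblast/pericyte-like cells both AKI ratios were below that of the control, as in most other classes. This was not so in macrophage-like, DC-like or urothelium-like cells, and the control is 1 library.

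**Figure D2:**
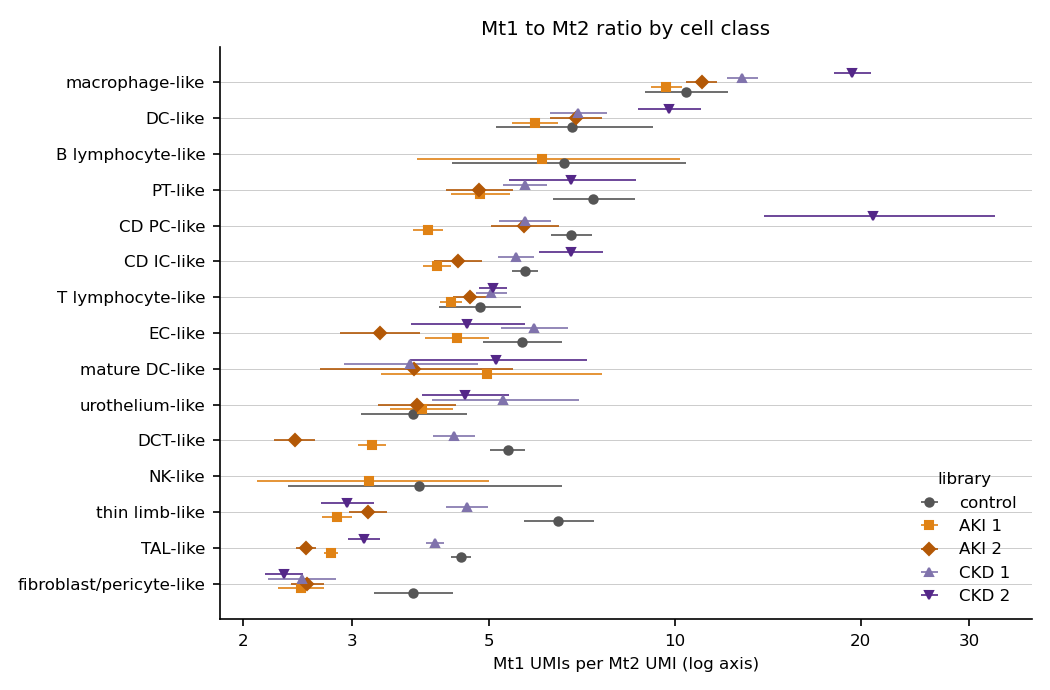
Mt1 UMIs per Mt2 UMI on a log axis, with 1 row per cell class, 1 symbol per library with at least 20 cells and 20 Mt2 UMIs, and bars for the exact 95% binomial interval. Fibroblast/pericyte-like cells are at 2.33 to 3.77 and macrophage-like cells at 9.70 to 19.4.

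AKI 1 and AKI 2 differed from each other in most classes. Among the 13 named classes with at least 20 cells in every library, Mt1 was higher in AKI 1 than in AKI 2 in 11, and Mt2 likewise in 11. In T lymphocyte-like cells, the largest class, Mt1 was 4.35 in AKI 1 and 2.05 in AKI 2, whereas the summed genes of the dissociation and stress list, among them Fos, Jun and heat shock genes that rise when tissue is digested, were 73.5 and 76.4 UMIs per 10000. The summed glucocorticoid-induced genes were 10.5 and 11.3 there. In other classes the dissociation and stress list was higher in AKI 1, as in PT-like cells (75.9 against 53.3) and macrophage-like cells (210 against 191). Of the 11 classes in which Mt1 was higher in AKI 1, this list was higher in 7, the glucocorticoid-induced list in 5 and the summed genes of metal sensing and copper handling in 10. Over all 13 classes these lists were higher in AKI 1 in 9, 6 and 11, so the shares were about the same. The part of these in the Mt1 difference was not tested. Both AKI libraries were above the control in 9 of the 13 classes for Mt1 and in 11 for Mt2, against 36.2% of all pairs of a class and a gene with at least 500 UMIs. Both CKD libraries were above it in 7 and 6 classes, against 32.3% of pairs. With 1 control library this difference has no replicate check.

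From AKI to CKD, Mt1 groups did not overlap in 3 of the 13 classes and Mt2 groups in 6, with CKD lower in each, where 20.1% of all pairs of a class and a gene had both CKD libraries below both AKI libraries. The 3 classes of Mt1 are thus close to that share. In DC-like cells, the dendritic cells, Mt1 was 2.61, 14.5, 9.22, 6.12 and 6.27, and Mt2 was 0.383, 2.45, 1.33, 0.878 and 0.640. The mean CKD level was 0.52 of the AKI level for Mt1 and 0.40 for Mt2. The other classes were B lymphocyte-like and urothelium-like cells for both genes, and macrophage-like, TAL-like and NK-like cells for Mt2. In macrophage-like cells the mean CKD level was 0.85 of the AKI level for Mt1 and 0.56 for Mt2, and in PT-like cells 0.90 and 0.72, all within overlapping groups apart from macrophage-like Mt2. The direction in PT-like cells was not stable. The ratio was 0.587 for Mt1 and 0.417 for Mt2 without CKD 1, 1.22 and 1.03 without CKD 2, 1.16 for Mt1 without AKI 1, and 1.01 for both genes with a mitochondrial limit of 15%.

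Mt3 stood apart. In macrophage-like cells its level was 0.0326, 0.00717, 0.125, 3.64 and 3.38, from 8, 6, 156, 5493 and 4750 UMIs. Both CKD libraries were far above the other 3 and close to each other. Not overlapping between AKI and CKD was itself common in this class, where 43.2% of genes with at least 500 UMIs were higher in both CKD libraries, and the size of the Mt3 difference is given here as a description. The mean CKD level was 53.2 times the AKI level, 28.1 times without AKI 1 and 489 times without AKI 2. It was 134 times when cells with a barcode that also occurs in another library were left out, which removes the AKI 2 cell richest in Mt3. That cell had 28673 UMIs, and its barcode also occurs in a control CD IC-like cell with 12745 UMIs and 0 Mt3 UMIs. An Mt3 UMI was found in 22.8% and 23.5% of macrophage-like cells of CKD 1 and CKD 2, and in 1.08%, 0.306% and 0.552% of those of the control, AKI 1 and AKI 2. Thinned to 1000 UMIs a cell, the CKD shares were 13.1% and 10.9%, against 1.17% and 0.773% in T lymphocyte-like cells of the same libraries. Macrophage-like cells were 14.1% and 6.84% of the kept cells of CKD 1 and CKD 2 and held 88.6% and 90.3% of their Mt3 UMIs.

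**Figure D3:**
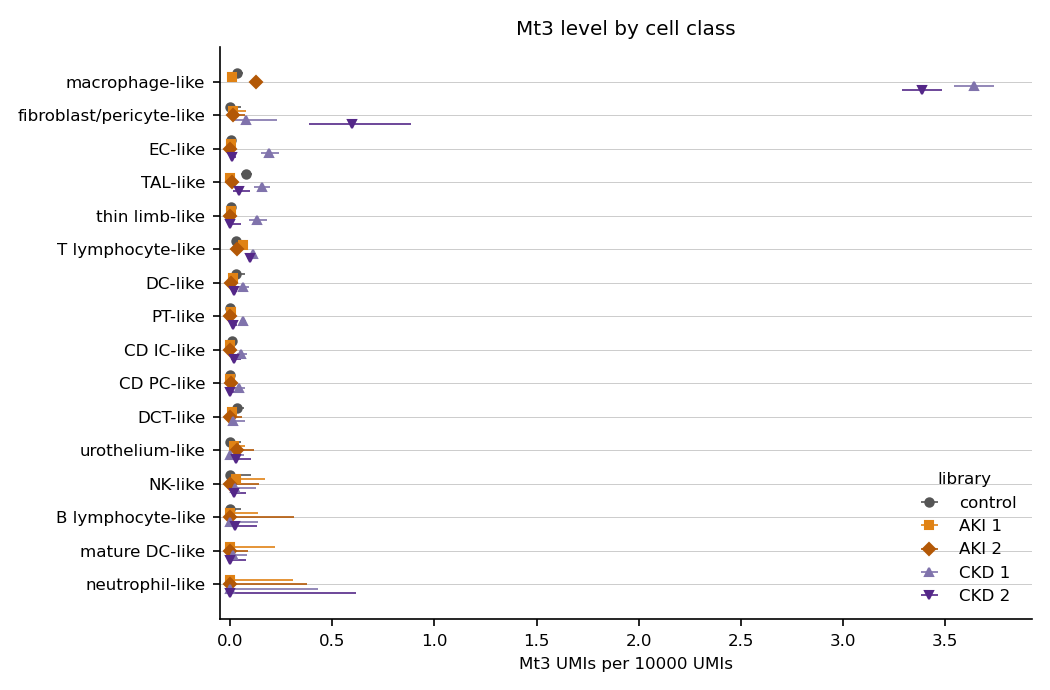
Mt3 level as UMIs per 10000 UMIs, with 1 row per cell class, 1 symbol per library with at least 20 cells and bars for the exact 95% Poisson interval. CKD 1 and CKD 2 stand at 3.64 and 3.38 in macrophage-like cells, while every other point is at or below 0.598, which is the fibroblast/pericyte-like value of CKD 2.

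The class was named from 11 macrophage markers, whose summed level was 131 to 158 UMIs per 10000 in the 5 libraries. Of these markers 0 were at 0 in any library. Ctsk, Acp5 and Mmp9 are among them, so the sum is a description and not a separate check of the name. It held 5 clusters, and most Mt3 UMIs lay in 2 of them, whose leading genes were Ctsk, Mmp9, Acp5, Slc9b2 and Ocstamp. Ctsk (cathepsin K), Acp5 (tartrate-resistant acid phosphatase) and Mmp9 are bone- and matrix-degrading enzymes known from osteoclasts, and Ocstamp is needed for osteoclast fusion. Mt3 and the other metallothioneins were not among the genes used for clustering. These Ctsk-led clusters made up 44.9% and 45.6% of macrophage-like cells in CKD 1 and CKD 2, 11.0% and 13.7% in AKI 1 and AKI 2, and 5.10% in the control. Of the 500 cells of 1 of these clusters, 495 came from CKD 1, and without it the shares were 29.9% and 45.4% in CKD 1 and CKD 2 and 10.9% and 13.6% in AKI, so the closeness of the CKD shares rested on it. The Mt3 level of macrophage-like cells without this cluster, a choice made after seeing the data, was 3.62 in CKD 1 and 3.39 in CKD 2.

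In the Ctsk-led clusters Mt3 was at 0.0385 UMIs per 10000 for AKI 1, 0.554 for AKI 2, 6.94 for CKD 1 and 5.18 for CKD 2. In the remaining macrophage-like clusters, led by Ccl8, Pf4 and the complement genes C1qa, C1qb and C1qc, it was 0.00142, 0.00206, 0.0949 and 0.0245. The Ctsk-led clusters held 5424 of the 5493 macrophage-like Mt3 UMIs of CKD 1 and 4738 of the 4750 of CKD 2. The cells of AKI that joined these clusters were not equal to those of CKD, since Ctsk was 0.170 and 5.11 in AKI 1 and AKI 2 and 57.6 and 53.7 in CKD 1 and CKD 2. A Ctsk UMI was found in 4 of 72 and 13 of 124 cells of these clusters in AKI 1 and AKI 2. In CKD 1 and CKD 2 it was found in 919 of 1036 and 215 of 274. The difference in Mt3 between AKI and CKD within the clusters therefore runs beside a difference in the genes that lead them.

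In AKI 2 all 154 Mt3 UMIs of the Ctsk-led clusters came from 3 of 124 cells. They held 24, 27 and 103 Mt3 UMIs beside 201, 379 and 759 Ctsk UMIs. In AKI 1, 1 of 72 cells held 5. In CKD 1, 471 of 1036 cells had an Mt3 UMI, with a median of 3 and a highest value of 180, and in CKD 2, 134 of 274, with a median of 23.5 and a highest value of 197. The richest 10% of the Ctsk-led cells held 79.5% and 59.1% of Mt3 UMIs in CKD 1 and CKD 2, but 53.1% and 29.2% of Mt1 UMIs.

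Mt3 and Ctsk were found in the same cells. Of the Ctsk-led cells with an Mt3 UMI, 99.4% in CKD 1 and 97.8% in CKD 2 also held Ctsk, against 88.7% and 78.5% of all cells of these clusters. Among cells of these clusters with at least 3000 UMIs, Ctsk was 82.5 UMIs per 10000 in CKD 1 cells with Mt3 and 24.9 in those without, and 89.6 against 15 in CKD 2. Acp5 was 105 against 44.2 in CKD 1 and 105 against 30.0 in CKD 2. Mt1 was 14.8 against 12.3 and 15.9 against 12.8, and Mt2 was 0.759 against 0.955 and 0.590 against 0.776. A cell with more UMIs is more likely to hold an Mt3 UMI, and the median depths were 5708 against 4717 UMIs in CKD 1 and 35003 against 30988 in CKD 2.

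Mt1 and Mt2 divided the same macrophage-like clusters in another way. In the Ctsk-led clusters Mt1 was 15.2, 12.2, 13.7 and 14.4 in AKI 1, AKI 2, CKD 1 and CKD 2, with no gap between AKI and CKD. In the other macrophage-like clusters it was 7.64 in the control, 14.8 and 11.1 in AKI and 7.28 and 6.39 in CKD, so both AKI libraries were above both CKD libraries and the control. Mt2 was 1.90 and 1.65 in AKI against 0.935 and 0.679 in CKD in the Ctsk-led clusters, and 1.46 and 0.845 against 0.704 and 0.450 in the others. The Mt1 level of the whole class is a mean over both kinds of cluster, weighted by their UMIs. Most AKI cells of the Ctsk-led clusters had no Ctsk UMI, so within these clusters AKI and CKD set unlike cells side by side. Among the other clusters, the one led by Cxcl2 and Pf4 had 440 cells, 439 of them from CKD 1 and 0 from AKI. The fall of Mt1 and Mt2 in the other clusters of CKD 1 thus also compares partly unlike cells.

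**Figure D4:**
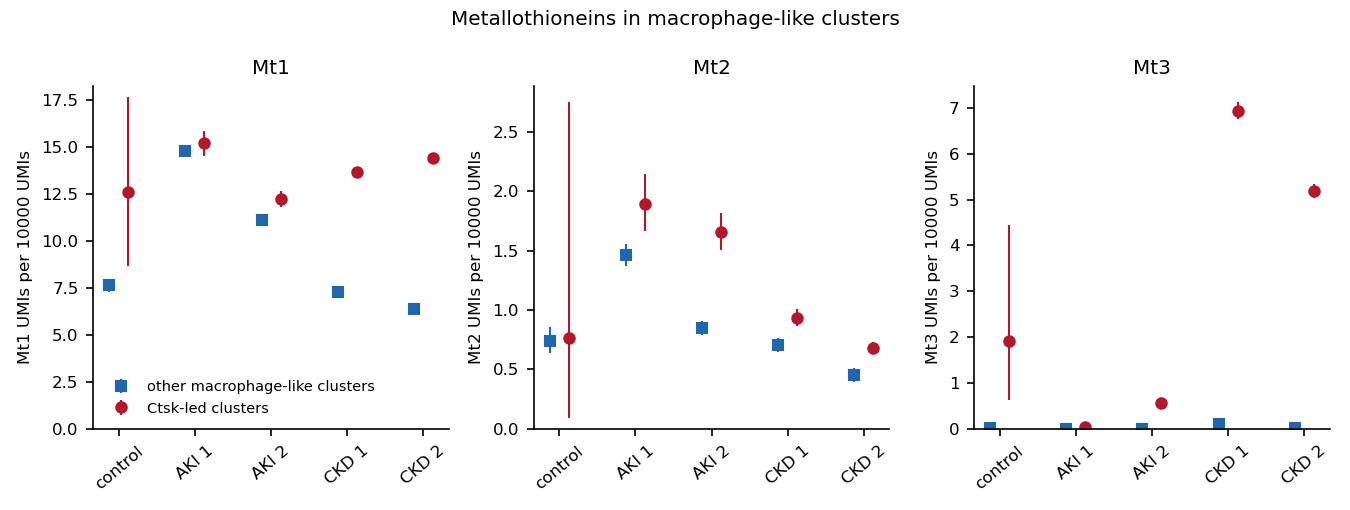
Mt1, Mt2 and Mt3 levels as UMIs per 10000 UMIs in the Ctsk-led (circles) and the other macrophage-like clusters (squares) of the 5 libraries, with bars for the exact 95% Poisson interval. Mt1 of the Ctsk-led clusters stays at 12.2 to 15.2 while that of the others is 6.39 and 7.28 in CKD, and Mt3 reaches 6.94 and 5.18 in the Ctsk-led clusters of CKD; the control point of these clusters rests on 33 cells, 30 of which have barcodes found again, far deeper, in CKD 2.

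The control value of the Ctsk-led clusters rests on barcodes shared with CKD 2. Mt3 was 1.91 UMIs per 10000 there, from 5 UMIs in 33 cells, and 30 of these cells carry a barcode that is over 20 times deeper in CKD 2. Without those 30 cells, 3 cells and 1 Mt3 UMI were left. In the remaining macrophage-like clusters of the control Mt3 was 0.0124, from 3 UMIs in 614 cells.

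Outside macrophage-like cells Mt3 was low, and its ratio to Ctsk differed between classes. In the Ctsk-led clusters there were 8.30 Ctsk UMIs for each Mt3 UMI in CKD 1 and 10.4 in CKD 2. In CKD 1 the ratio was 6.59 in EC-like, 8.37 in PT-like and 10.9 in TAL-like cells, where Mt3 was 0.191, 0.0629 and 0.154 UMIs per 10000. In CKD 2 Mt3 was 0.00846, 0.0153 and 0.0411 in these classes. Their mean AKI levels were 0.00224, 0.00173 and 0.00398, from 0 to 2 Mt3 UMIs a library. The mean CKD level was 44.5, 22.6 and 24.6 times the AKI level, so a higher Mt3 level in CKD was not limited to macrophage-like cells. These factors rest on very few AKI UMIs. Of the 81 Mt3 UMIs of EC-like cells in CKD 1, 71 lay in 1 cluster drawn nearly all from that library. The ratios of Ctsk to Mt3 in CKD 1 lay around that of the Ctsk-led cells, as did that of CD IC-like cells (11.6). CD PC-like cells had 26.8 from 14 Mt3 UMIs. Free RNA was not removed, and its part in these levels was not tested.

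T lymphocyte-like cells did not have that ratio. Their Mt3 level was 0.0270, 0.0615, 0.0328, 0.113 and 0.0986 UMIs per 10000, from 13, 167, 86, 295 and 435 UMIs, with both CKD libraries above both AKI libraries. In AKI 1 the 167 Mt3 UMIs, in 125 of 5714 cells, stood beside 2 Ctsk UMIs, and in AKI 2 the 86 stood beside 15. These cells held 87.4% of all Mt3 UMIs of AKI 1 and 34.1% of those of AKI 2. The cluster led by histone genes and the proliferation genes Birc5 and Mki67 held 70, 22, 109 and 223 of these UMIs in AKI 1, AKI 2, CKD 1 and CKD 2, and other T lymphocyte-like clusters held more in AKI 2 or had a higher level in CKD. TAL-like cells of the control held 35 Mt3 UMIs in 29 of 348 cells beside 18 Ctsk UMIs, while those of AKI 1 and AKI 2 held 0 and 2 Mt3 UMIs. In fibroblast/pericyte-like cells of CKD 2 the 25 Mt3 UMIs came from 2 cells, 22 of them from 1. Neutrophil-like cells had 0 Mt3 UMIs in every library, from 18 to 48 cells each.

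Among 13365 genes with at least 500 UMIs, the pattern over the 77 class-by-library values most like Mt3 was that of Slc9b2, a sodium-proton exchanger of osteoclasts (Pearson r = 0.91), followed by the osteoclast receptor Oscar (0.86), Ocstamp (0.83), Cacna1f (0.80), Ctsk (0.80), Ccr3 (0.79), Mst1r (0.79), Abcb4 (0.78), Slc37a2 (0.78) and Ckm (0.76). Mt1 and Mt2 apart, the genes most like Mt1 were Dapk1 (0.83), Mras (0.75), Hcfc1r1 (0.74), Ak1 (0.74) and Rnd3 (0.73), and the genes most like Mt2 were Dapk1 (0.78), Ak1 (0.78), St5 (0.77), Dbn1 (0.76) and Hoxd10 (0.76). No gene came as near to Mt1 as Mt2 did. Since most Mt3 levels outside macrophage-like cells were below 0.1, the likeness to Mt3 rests mostly on the macrophage-like values of CKD. Ccr3, Cacna1f, Ckm and Oscar had 508, 584, 586 and 613 UMIs, little above the limit of 500. Values of 1 library share its depth and free RNA, and the likeness says nothing of shared control.

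Over the 77 values the 6 protein-coding neighbours on chromosome 8 had correlations with Mt3 of -0.19 (Herpud1) to 0.25 (Nudt21). In macrophage-like cells Nup93, the next gene beyond Mt1 at 34134 bases, a nuclear pore subunit, was 0.0449, 0.0765, 0.0969, 0.143 and 0.182 UMIs per 10000. Nudt21 was 0.310, 0.470, 0.548, 0.710 and 0.736, and Bbs2, 38269 bases before Mt4, lay between 0.0155 and 0.0292. In these 3 genes, as in Mt3, both CKD libraries were above both AKI libraries, by far smaller factors. Ogfod1 lay between 0.0311 and 0.0513. Herpud1, a gene of endoplasmic reticulum stress, had 2.06, 3.06, 2.32, 1.13 and 0.960, with CKD lowest. Slc12a3, the salt transporter that defines the distal convoluted tubule, was 0.0185 to 1.21 UMIs per 10000 in macrophage-like cells, highest in the control.

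The other genes of metal handling were tested between AKI and CKD in the 4 largest classes on UMI sums per library, with edgeR's quasi-likelihood test and Benjamini-Hochberg adjustment over all genes tested. In macrophage-like cells 31.2% of the 12491 genes tested were called at an adjusted p under 0.05 (14.6% higher and 16.6% lower in CKD). Of 6 zinc exporters tested 0 were called (median log2 difference -0.09, against 0.03 over all genes), and of 11 zinc importers 2 were higher in CKD (median 0.00). Slc39a13, which moves zinc out of the Golgi and vesicles, rose by 1.65 ± 0.15 on the log2 scale (± SE, adjusted p = 0.0011, edgeR), from 0.10 in both AKI libraries to 0.338 and 0.378 UMIs per 10000. Slc39a1, a plasma membrane importer, rose by 0.61 ± 0.14 (adjusted p = 0.0241, edgeR) but was not called without AKI 1 or without AKI 2, whereas Slc39a13 was called without either. Slc30a1, the zinc exporter that MTF1 controls, was 0.122, 0.102, 0.148 and 0.13 and did not pass the test, nor did Mtf1 itself (0.120, 0.125, 0.156 and 0.153).

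Of 12 genes of metal sensing and copper handling tested in macrophage-like cells, 1 was higher and 3 were lower in CKD (median log2 difference 0.09). Cp (ceruloplasmin, the copper-carrying ferroxidase) fell by 2.92 ± 0.13, Slc31a2 (a copper transporter of vesicles) by 0.86 ± 0.13 and Atp7a (the copper exporter) by 0.86 ± 0.15 on the log2 scale. Cox17, a copper chaperone of mitochondria, rose by 0.53 ± 0.10. Of these, Cp alone was called when AKI 1 or AKI 2 was left out. Against the 31.2% of all genes called in this class, the share of the copper list was close to the background and that of the zinc transporters below it. Within this class the Ctsk-led clusters held 11.0% to 13.7% of cells in AKI, few of them with a Ctsk UMI, against 44.9% to 45.6% in CKD. The comparison thus also sets unlike mixes of cells side by side.

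Genes that respond to other known inducers of Mt1 and Mt2 were counted in macrophage-like cells against the 16.6% of all genes called lower there. Of 8 glucocorticoid-induced genes 3 were lower in CKD (median log2 difference -0.89), Fkbp5 by 1.39 ± 0.29, Dusp1 by 1.37 ± 0.14 and Sgk1 by 1.15 ± 0.11 on the log2 scale. Of 7 genes of the oxidative stress response 3 were lower (median -0.29), Slc7a11 (the cystine importer) by 1.94 ± 0.17, Nfe2l2 (the antioxidant regulator NRF2) by 1.76 ± 0.11 and Hmox1 (heme oxygenase) by 1.40 ± 0.14. Of 10 dissociation and stress genes 9 were lower (median -1.39), led by Egr1 (2.72 ± 0.19), Atf3 (2.19 ± 0.14), Fosb (1.92 ± 0.18), Jun (1.62 ± 0.14) and Ier2 (1.5 ± 0.11), and the summed list was 210 and 191 UMIs per 10000 in AKI against 84.8 and 83.9 in CKD. Without AKI 1 or AKI 2, Fkbp5 was not called, and without AKI 1 the dissociation genes Hspa1a and Hspa1b were not. Of 6 proximal tubule transcripts 0 were called (median 1.15), with 4 lower in CKD without CKD 1 and 7 of 7 higher without CKD 2. The part of digestion stress in the Mt1 and Mt2 levels was not tested.

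In PT-like cells 0.606% of 11886 genes were called (0.429% higher and 0.177% lower in CKD), and among the metal, copper, glucocorticoid, oxidative stress and dissociation lists the 1 called gene was Cp, which fell by 1.86 ± 0.26 on the log2 scale (adjusted p = 0.0356, edgeR); it was not called without AKI 1 or without AKI 2. In T lymphocyte-like cells 7.35% of 13816 genes were called (5.65% higher and 1.7% lower in CKD). Commd1, a copper homeostasis gene, was the 1 called gene of the metal lists and rose by 0.55 ± 0.07, while 2 of 8 glucocorticoid-induced genes (Klf9 and Per1) and 6 of 10 dissociation and stress genes fell. No gene was called in this class without AKI 1 or without AKI 2. In EC-like cells 0% of 11641 genes were called by edgeR, 482 had an unadjusted p under 0.05, and DESeq2 called 10.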

How the data were processed

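The deposited values are raw UMI counts for each gene in each barcode, not normalized by the authors. The submitters' notes name Cell Ranger 7.2.0, STAR and GRCm39, but the AKI and CKD headers give a different Cell Ranger release and the control's gene list gives mm10. All libraries list the same genes. Gene positions come from GENCODE (GRCm39) and promoters from RefSeq (GRCm38.p6).

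Barcodes needed 200 genes and no more than 30% mitochondrial UMIs, and doublets were removed by the share of simulated doublets among neighbours (0.8% per 1000 cells). Free RNA was not removed. Cells were clustered (3000 variable genes without the listed genes, 40 components, Harmony's method, Leiden resolution 1.5) and named from markers, with naming limits set after the clusters were seen. UMI sums per library were tested with edgeR 4.0.16 (TMM, filterByExpr, quasi-likelihood), checked on simulated data, 2 AKI against 2 CKD libraries. DESeq2 1.42.0 was an alternative. Intervals are exact at 95% and cover counting error only. The members, lists and alternatives were chosen with earlier results of these data known. The text names the members, at most 5 called genes per list by size of change, the genes nearest in pattern (5 each for Mt1 and Mt2, 10 for Mt3), the 3 protein-coding genes on each side, and markers.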

Additional observations from a re-analysis of the deposited data

How the results depend on the processing

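Of 66 recomputed level ratios and shares, 58 moved by less than the spread between libraries. That spread was wide for macrophage-like Mt3, at 2.06 on the log2 scale, so a ratio of 28.1 counted as unmoved from 53.2. The PT-like Mt1 ratio of 1.22 also counted as unmoved from 0.904, so the count is a weak check. Leaving out 1 library at a time gave CKD-to-AKI ratios of 28.1 to 489 for Mt3, 0.749 to 0.980 for Mt1 and 0.465 to 0.694 for Mt2 in macrophage-like cells, and of 0.587 to 1.22 for Mt1 and 0.417 to 1.03 for Mt2 in PT-like cells, where both directions occurred, with the highest values without CKD 2. Averaging over cells gave 0.720 for macrophage-like Mt2. The share of CKD Mt3 UMIs in macrophage-like cells (89.5%) was 87.7% with doublets kept, 86.9% without Harmony and 91.2% with cells under 3000 UMIs left out, the last chosen after seeing the data. The cause was not tested.

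Counts of genes called depended more on the libraries. They were 3894 in macrophage-like cells (1083 to 5997 with 1 library left out), 72 in PT-like (1 to 1085), 0 in EC-like (0 to 242) and 1015 in T lymphocyte-like cells (0 to 4691). DESeq2 called 159, 10 and 1629 in the last 3 classes. Without the low-count filter 809 and 345 were called in PT-like and EC-like cells. With doublets kept 3 were called in EC-like and 1570 in T lymphocyte-like cells, and with a mitochondrial limit of 15% 1958 in the latter. AKI and CKD libraries share the numbers 1 and 2 in the labels, but nothing says that a number marks a shared animal or batch, and the same-numbered deviations correlated at 0.099 to 0.30 over genes. With the replicate block 3759, 541, 21 and 906 genes were called. 1 control library and 2 libraries in each other group limit every comparison, and at 6 and 8 UMIs the Mt3 levels of AKI 1 and control macrophage-like cells are near the limit of detection.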
